A study of Mus musculus with 16 samples.

Results

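Astrocytes are recognised by a set of transcription factors that set them up in the embryonic brain and remain on in the mature cell. The 9 factors followed here were Sox9, Sox2, Nfia, Nfib, Nfix, Zbtb20, Lhx2, Emx2 and Pax6. They were chosen by name as known regulators of astrocyte identity and of the radial glia from which astrocytes arise. Earlier results of these data were known when they were chosen. All 9 were found among the 16707 genes of the deposited table. They were measured in primary astrocytes of WT (C57BL6J) and of Nlrx1-/- mice, for which the methods of the study give the same strain. In Nlrx1-/- mice the gene for the mitochondrial NOD-like receptor NLRX1 is disrupted (which part of the gene is missing was not stated in the sources used here). Whole brains of P6 pups were dissociated (the study's results text gives an earlier age), cells carrying the astrocyte surface antigen ACSA-2 were taken with magnetic beads, and the cells grew for approximately 10 days in serum-free medium with HB-EGF. From each of 4 WT litters and 4 Nlrx1-/- litters, 1 culture received vehicle (H2O) and another received 500 ng/mL lipopolysaccharide (LPS, a bacterial cell wall component) with 10 ng/mL of the cytokine IFNγ for 24 h, which gave 16 libraries in 4 groups of 4. Both cultures of a replicate came from 1 set of mice, and the methods name the litter as the biological replicate, so the spread between libraries of a group is that between litters, and whether the pups of a litter were pooled was not stated in the sources used here.

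SOX9 and SOX2 are SRY-box proteins: SOX2 keeps neural stem cells in their undifferentiated state, and SOX9 switches them from making neurons to making glia and then stays on in nearly all astrocytes. SOX9 induces the nuclear factor I protein NFIA, and the pair together turn on early astrocyte genes. NFIB and NFIX, the close relatives of NFIA, bind the same palindromic DNA motif and act in the same step. ZBTB20 is a zinc finger repressor that promotes the making of astrocytes in the developing cortex. LHX2, EMX2 and PAX6 are homeodomain proteins that pattern the dorsal forebrain and remain in the radial glia and astrocytes derived from it. The comparisons asked how these factors responded to an inflammatory stimulus and whether the response or the level depended on Nlrx1.

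The identity factors changed little beside the inflammatory genes. After LPS+IFNγ, Emx2 rose in both genotypes, by 32.4% in WT and to 2.20 times its vehicle level in Nlrx1-/- astrocytes, while Nfia and Nfix fell in both by between 12.9% and 17.7%. Lhx2 fell and Zbtb20 rose by the test in WT, and Sox2 fell by the test in Nlrx1-/-. Sox9, Nfib and Pax6 passed the test in neither genotype. Between genotypes under LPS+IFNγ, Zbtb20 was lower and Emx2 higher in Nlrx1-/- astrocytes by the test. Each of these calls was kept in 3 of the 8 fits with 1 litter left out, and lost with that treatment fitted alone. In vehicle no member passed the test, and neither did any other gene. Zbtb20 differed by a similar size in both treatments, -0.68 in vehicle and -0.75 under LPS+IFNγ on the log2 scale. For scale, 8 of 8 known targets of LPS and IFNγ rose in each genotype, with a median log2 fold change of 7.10 in WT and 6.91 in Nlrx1-/-.

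A gene was called changed where edgeR's quasi-likelihood test gave a Benjamini-Hochberg adjusted p below 0.05 over the 16062 genes tested, and all 9 members passed the filter on low counts. Levels are given as log2 CPM, the authors' log2 read counts relative to library size after scaling between libraries, which compares libraries for 1 gene. Of all genes tested, 23.8% rose and 20.2% fell in WT and 25.3% rose and 24.2% fell in Nlrx1-/-, so the 2 members up and 3 down in WT, and the 1 up and 3 down in Nlrx1-/-, were shares near those of all genes. The median log2 fold change of the members was -0.09 in both genotypes, beside -0.02 over all genes in WT and -0.03 in Nlrx1-/-. The libraries held between 27259420 and 43752903 reads assigned to transcripts, with a median of 35554625, and the members had between 427 (Emx2) and 28359 reads (Nfix) in a library, with up to 29575 rebuilt reads for Zbtb20. Nlrx1 itself, the targeted gene, lay between 4.08 and 4.44 log2 CPM in WT libraries and between 1.09 and 2.96 in Nlrx1-/- libraries, with no overlap. Its log2 fold change between genotypes was -1.70 in vehicle (edgeR adjusted p = 0.0538) and -2.19 under LPS+IFNγ (edgeR adjusted p = 0.00318).

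**Figure D1:**
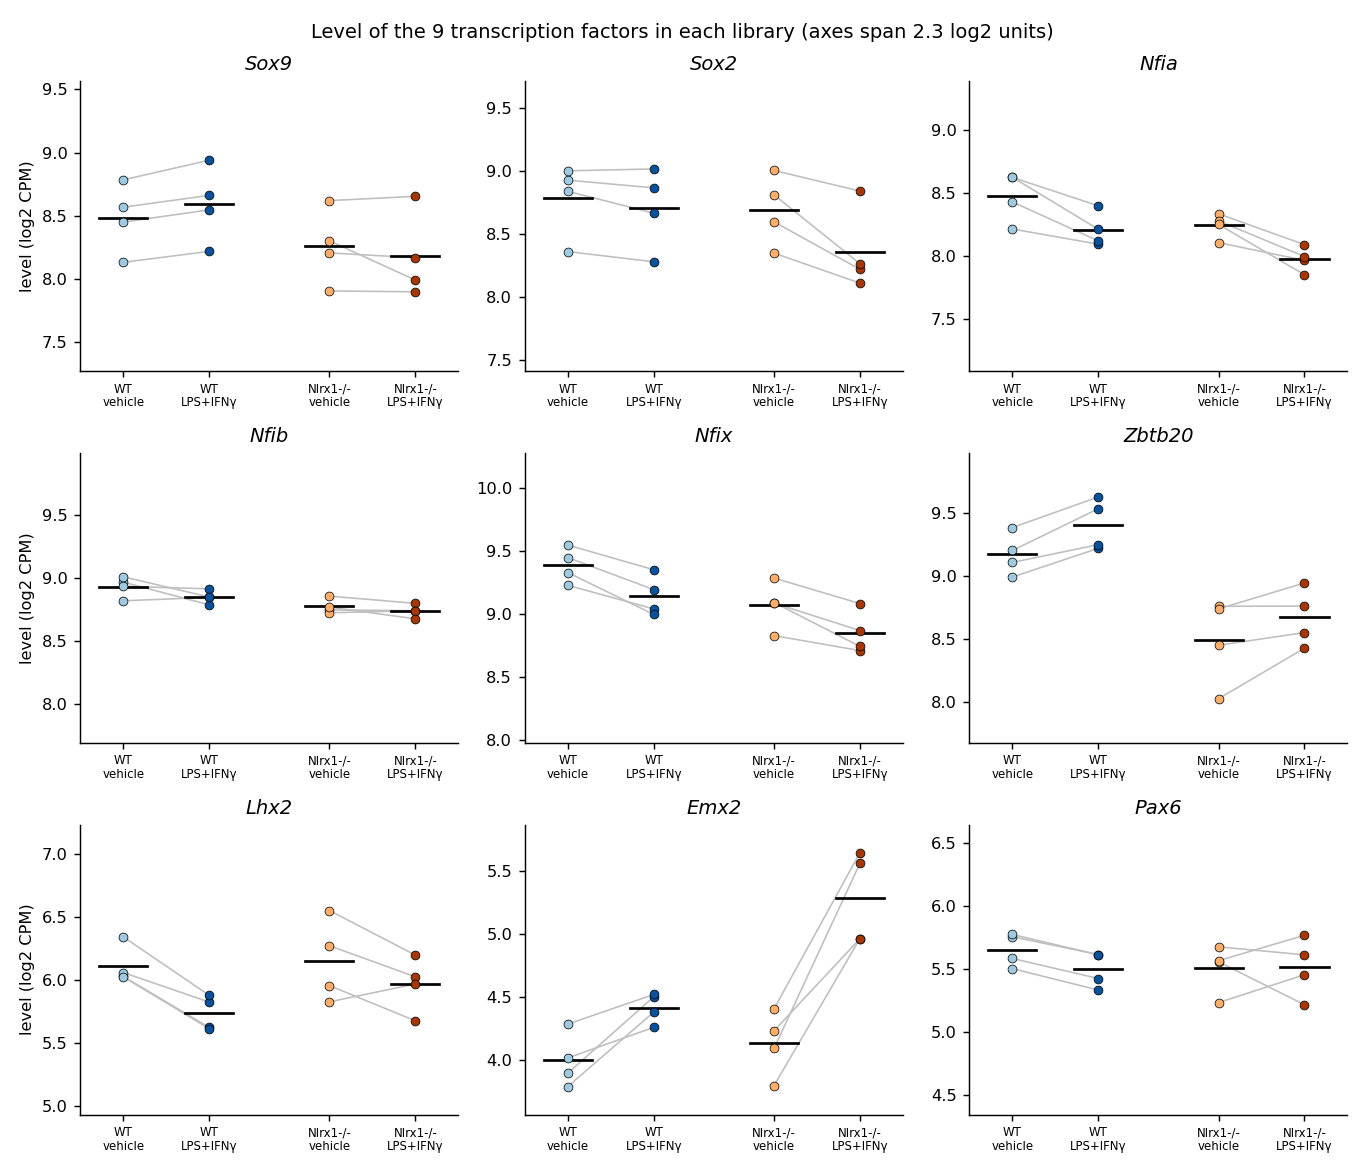
Level of each of the 9 transcription factors in log2 CPM (y axis) in the 4 groups (x axis). Points are libraries, grey lines join the vehicle and LPS+IFNγ cultures of 1 litter, and black bars are means of 4 litters. Emx2 rises in all 8 litters, and the Nlrx1-/- points of Zbtb20 lie below all WT points of the same treatment.

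Levels of different genes can be compared only per transcript length, and this was done in TPM, a share of transcripts after division by length, for the 8 members other than Zbtb20, most of whose reads lay on transcripts that could not be paired with the gene. In WT vehicle, Sox2 was the highest at 415 ± 73 TPM (SD, n = 4), followed by Nfix at 239 ± 21, Sox9 at 199 ± 35, Nfib at 122 ± 5.4, Nfia at 86.6 ± 10.4, Lhx2 at 62.9 ± 6.6, Pax6 at 31.2 ± 2.8 and Emx2 at 14.1 ± 2.1. Neighbours in this order did not overlap between litters, except Nfix and Sox9. In Nlrx1-/- vehicle the order was the same, and the ranges of Nfix and Sox9 and of Nfia and Lhx2 overlapped. Under LPS+IFNγ in WT the order differed only in Sox9 (185 ± 37 TPM) standing before Nfix (176 TPM), and the ranges of that pair overlapped. The order in Nlrx1-/- under LPS+IFNγ ended with Emx2 at 29.3 ± 6.5 TPM before Pax6 at 24.0 ± 3.7, and in that group the ranges of the pair overlapped, with Emx2 above Pax6 in 3 of 4 litters. In the other 3 groups Pax6 was above Emx2 in all litters.

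**Figure D2:**
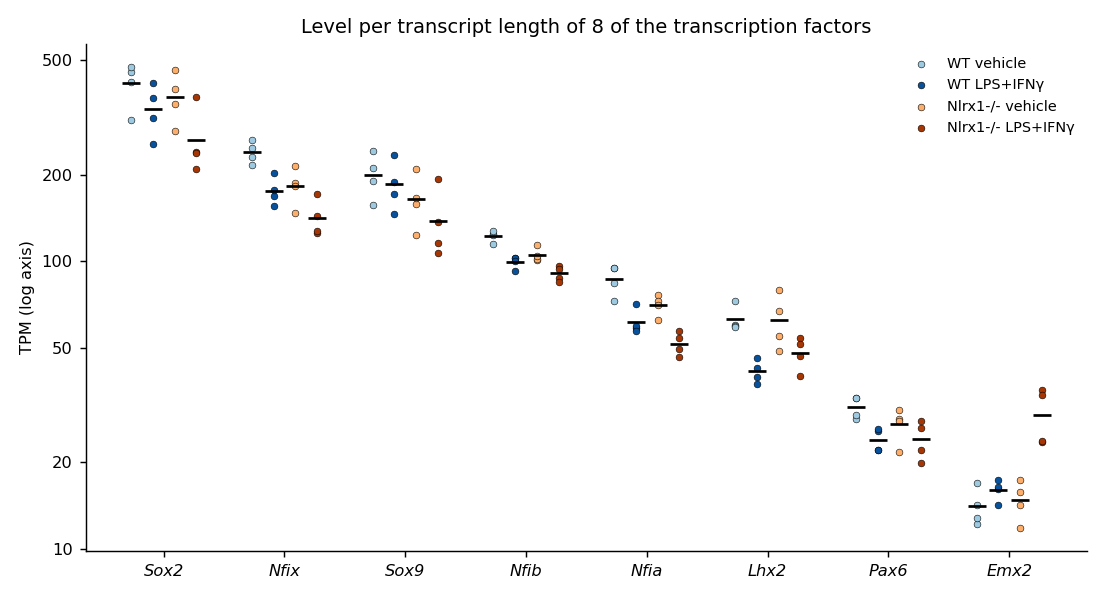
Level of 8 of the transcription factors in TPM (y axis, log scale), ordered on the x axis by their mean in WT vehicle. Points are libraries coloured by group, and black bars are means of 4 litters. Sox2 lies highest at a mean of 415 TPM in WT vehicle and Emx2 lowest at 14.1, and the Nlrx1-/- LPS+IFNγ libraries of Emx2 stand above its other libraries.

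Sox9, which keeps the glial fate and is used as a nuclear marker of astrocytes, lies on chromosome 11 (GRCm39, chr11:112673009-112678586, plus strand, 3 exons). In WT vehicle its level was 8.13, 8.45, 8.57 and 8.78 log2 CPM in litters 1 to 4, and under LPS+IFNγ 8.22, 8.55, 8.66 and 8.94. The Nlrx1-/- libraries in vehicle were at 8.20, 7.90, 8.62 and 8.30, and under LPS+IFNγ 8.17, 7.90, 8.65 and 7.99. Litters differed more than treatments did: each WT litter moved by only 0.09 to 0.16 log2 units, while the WT vehicle litters spanned 0.65. The direction of so small a change depended on the scale. In TPM, Sox9 was lower with the stimulus in each WT litter, at 156, 190, 210 and 241 in vehicle and 145, 171, 189 and 234 under LPS+IFNγ. The log2 fold change was 0.10 in WT (SE 0.06, edgeR adjusted p = 0.208) and -0.09 in Nlrx1-/- (SE 0.06, edgeR adjusted p = 0.210), and the responses differed by -0.19 (SE 0.08, edgeR adjusted p = 0.311).

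Sox2, the stem cell factor, is a gene of 1 exon on chromosome 3 (chr3:34704554-34706610, plus strand), and 59.9% of its exonic bases also lie in an antisense non-coding gene, from which these unstranded reads cannot tell it apart. In vehicle, the Nlrx1-/- level was 8.59, 8.35, 9.0 and 8.81 log2 CPM, and under LPS+IFNγ 8.22, 8.11, 8.84 and 8.26. It was lower in every Nlrx1-/- litter, by 0.16 to 0.55 log2 units. In WT vehicle it was 8.36, 8.84, 8.92 and 9.0, and under LPS+IFNγ 8.28, 8.66, 8.86 and 9.01, lower in 3 of 4 litters. Sox2 fell by 0.35 on the log2 scale in Nlrx1-/- (SE 0.07, edgeR adjusted p = 0.00139), and in WT its log2 fold change was -0.09 (SE 0.07, edgeR adjusted p = 0.317). The difference between these responses, -0.26 (SE 0.09), had an edgeR adjusted p of 0.243, so the fall is not shown to depend on the genotype. Sox2ot, the long non-coding gene in which Sox2 is embedded, moved by -0.18 ± 0.06 log2 CPM (SD, n = 4) in WT and -0.12 ± 0.11 in Nlrx1-/-.

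Nfia, which acts with SOX9 at the start of gliogenesis, spans 16 merged exons on chromosome 4 (chr4:97660971-98007111, plus strand). Its level in WT vehicle was 8.22, 8.63, 8.43 and 8.63 log2 CPM, and under LPS+IFNγ 8.10, 8.21, 8.12 and 8.40. The Nlrx1-/- libraries in vehicle were at 8.34, 8.11, 8.28 and 8.25, and under LPS+IFNγ 8.09, 7.97, 8.0 and 7.85. All 8 litters were lower with the stimulus, and in Nlrx1-/- the ranges of the treatments did not overlap. Nfia fell by 0.28 on the log2 scale in WT (SE 0.06, edgeR adjusted p = 0.00279) and by 0.28 in Nlrx1-/- (SE 0.06, edgeR adjusted p = 0.00222). The difference of the responses was -0.0036 (SE 0.08, edgeR adjusted p = 0.993).

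Nfix, on the minus strand of chromosome 8 (chr8:85426505-85527046), was the highest of the 3 NFI genes. Its level in WT vehicle was 9.23, 9.45, 9.33 and 9.55 log2 CPM, and under LPS+IFNγ 9.04, 9.19, 9.0 and 9.35. In vehicle, the Nlrx1-/- level was 9.09, 8.83, 9.29 and 9.09, and under LPS+IFNγ 8.87, 8.71, 9.08 and 8.74. It was lower with the stimulus in all 8 litters, by 0.12 to 0.35 log2 units. Nfix fell by 0.24 on the log2 scale in WT (SE 0.05, edgeR adjusted p = 0.00391) and by 0.20 in Nlrx1-/- (SE 0.05, edgeR adjusted p = 0.00912).

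Nfib, on the minus strand of chromosome 4 (chr4:82208410-82623987), did not pass the test in either genotype. Its libraries kept within 8.68 and 9.01 log2 CPM, the narrowest range of the 9 members. The log2 fold change was -0.09 in WT (SE 0.05, edgeR adjusted p = 0.156) and -0.05 in Nlrx1-/- (SE 0.05, edgeR adjusted p = 0.425). Of 13 listed relatives of the members in the Sox, NFI, Zbtb, Lhx, Emx and Pax families, 10 were tested, and 3 rose and 3 fell in each genotype, with a median log2 fold change of -0.12 in WT and -0.18 in Nlrx1-/-. Among them was Nfic, the remaining NFI gene, named after its values were seen, which rose by 0.60 on the log2 scale in WT (edgeR adjusted p = 4.44e-06) and by 0.48 in Nlrx1-/- (edgeR adjusted p = 1.94e-05).

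Zbtb20, the zinc finger repressor, extends over 36 merged exons on chromosome 16 (chr16:42696093-43462965, plus strand). Because only 1.68% to 4.61% of its reads were on transcripts paired with the symbol, its counts were rebuilt from the deposited CPM. In WT vehicle its level was 8.99, 9.10, 9.20 and 9.38 log2 CPM, and under LPS+IFNγ 9.22, 9.25, 9.53 and 9.62. The Nlrx1-/- libraries in vehicle were at 8.76, 8.02, 8.74 and 8.45, and under LPS+IFNγ 8.76, 8.42, 8.94 and 8.55. All 8 Nlrx1-/- libraries were below all 8 WT libraries, and all 8 litters were higher with the stimulus, although Nlrx1-/- litter 1 moved by less than 0.01. Zbtb20 rose by 0.22 on the log2 scale in WT (SE 0.07, edgeR adjusted p = 0.0189), a call lost without WT litter 3 (0.18, adjusted p = 0.0929). In Nlrx1-/- the log2 fold change was 0.16 (SE 0.07, edgeR adjusted p = 0.0624), and it was called without Nlrx1-/- litter 1 (0.22, adjusted p = 0.0261) and when all genes were taken from the deposited CPM (0.18, adjusted p = 0.0310). The responses differed by -0.06 (SE 0.09, edgeR adjusted p = 0.802).

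Lhx2, a LIM homeodomain factor that holds hippocampal progenitors back from gliogenesis, lies on chromosome 2 (chr2:38229293-38259759, plus strand). Its level in WT vehicle was 6.03, 6.06, 6.03 and 6.34 log2 CPM, and under LPS+IFNγ 5.62, 5.83, 5.61 and 5.88, so that the treatments did not overlap. In vehicle, the Nlrx1-/- level was 5.96, 6.55, 6.27 and 5.83, and under LPS+IFNγ 5.68, 6.20, 6.03 and 5.97. Nlrx1-/- litter 4 was higher with the stimulus, and the other 3 were lower. Lhx2 fell by 0.39 on the log2 scale in WT (SE 0.08, edgeR adjusted p = 0.00216). In Nlrx1-/- the log2 fold change of -0.20 (SE 0.08) missed the threshold (edgeR adjusted p = 0.0537) and passed it without litter 4 (-0.30, adjusted p = 0.00363) and with DESeq2 (-0.20, adjusted p = 0.0446) or limma-voom (-0.20, adjusted p = 0.0426). The responses differed by 0.19 (SE 0.11, edgeR adjusted p = 0.431).

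Emx2, which patterns the dorsal telencephalon and is expressed in cortical radial glia, had the lowest TPM of the 8 ranked members in 3 of the 4 groups, and the largest response of the 9 in Nlrx1-/-. In WT its change was close in size to that of Lhx2, and DESeq2, limma-voom and the fits without WT litter 1 or 2 gave Lhx2 the larger of the pair. It lies on chromosome 19 (chr19:59446804-59453789, plus strand, 4 merged exons). In WT vehicle its level was 3.79, 3.89, 4.01 and 4.28 log2 CPM, and under LPS+IFNγ 4.38, 4.50, 4.26 and 4.52. The Nlrx1-/- libraries in vehicle were at 3.79, 4.40, 4.23 and 4.09, and under LPS+IFNγ 4.96, 5.64, 4.96 and 5.56. Every litter was higher with the stimulus on this scale, by 0.23 to 0.61 log2 units in WT and by 0.73 to 1.47 in Nlrx1-/-. These ranges of the response did not overlap, but the share of all genes for which that holds was not counted. In TPM, WT litter 3 stood at 14.2 in both treatments. Emx2 rose by 0.41 on the log2 scale in WT (SE 0.11, edgeR adjusted p = 0.0144), a call lost without WT litter 1 (0.35, adjusted p = 0.0654) or WT litter 2 (0.35, adjusted p = 0.0730), and by 1.14 in Nlrx1-/- (SE 0.11, edgeR adjusted p = 1.62e-05), a call kept when any 1 litter was left out. The difference of the responses was 0.73 (SE 0.16), with an unadjusted p of 0.000857 and an adjusted p of 0.218 in edgeR, where 0% of all genes were called and 2466 had an unadjusted p below 0.05. It was called by DESeq2 (0.75, adjusted p = 0.0113) and by edgeR without Nlrx1-/- litter 3 (0.86, adjusted p = 0.0364), and by none of the other alternatives.

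Emx2 shares 13.9% of its exonic bases with the antisense gene Emx2os, and unstranded reads in the shared part cannot be assigned to one or the other. Emx2os also stood higher in every litter with the stimulus, at 2.31 ± 0.10 log2 CPM (SD, n = 4) in WT vehicle and 3.16 ± 0.10 under LPS+IFNγ, and at 2.53 ± 0.51 in Nlrx1-/- vehicle and 3.41 ± 0.23 under LPS+IFNγ. Its mean response on that scale, 0.86 ± 0.10 in WT and 0.88 ± 0.28 in Nlrx1-/-, may be set beside that of Emx2, 0.42 ± 0.21 in WT and 1.15 ± 0.31 in Nlrx1-/-, without a test of the contrast. The part of antisense reads in the values of Emx2 was not tested.

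Pax6, the paired-box factor of dorsal radial glia, lies on chromosome 2 (chr2:105499234-105530952, plus strand) and shares 21.1% of its exonic bases with the antisense gene Elp4. Its level in WT vehicle was 5.50, 5.58, 5.76 and 5.77 log2 CPM, and under LPS+IFNγ 5.33, 5.43, 5.61 and 5.61. In vehicle, the Nlrx1-/- level was 5.56, 5.23, 5.68 and 5.57, and under LPS+IFNγ 5.22, 5.45, 5.61 and 5.77. All WT litters were lower with the stimulus by between 0.14 and 0.17 log2 units, whereas 2 Nlrx1-/- litters were lower and 2 higher. Neither response passed the test, with a log2 fold change of -0.17 in WT (SE 0.09, edgeR adjusted p = 0.138) and -0.01 in Nlrx1-/- (SE 0.09, edgeR adjusted p = 0.936).

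**Figure D3:**
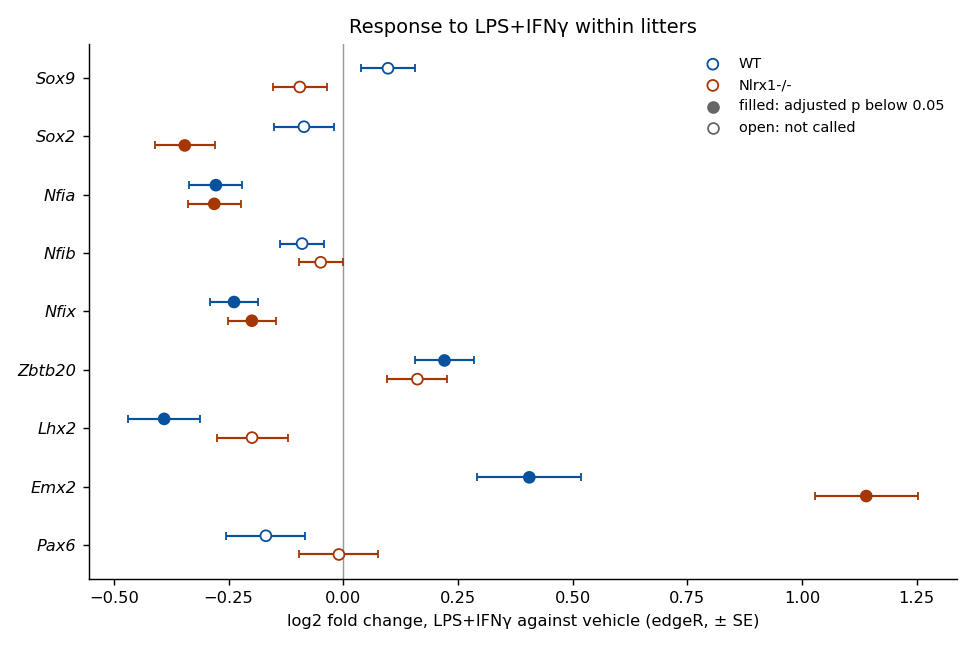
Log2 fold change of LPS+IFNγ against vehicle (x axis, edgeR within litters, bars are ± SE) of each transcription factor (y axis) in WT (blue) and Nlrx1-/- (brown). Filled points passed an adjusted p of 0.05. Emx2 is highest in both, at 0.41 in WT and 1.14 in Nlrx1-/-, and Nfia and Nfix are filled and below 0 in both.

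Between genotypes in vehicle, no member was called, and 0% of all genes were, although 3155 genes had an unadjusted p below 0.05. Of the 9 members, 7 had a log2 fold change below 0, with a median of -0.17 beside 0.00 over all genes. The 3 NFI genes were at -0.34 for Nfix (SE 0.11, edgeR adjusted p = 0.146), -0.25 for Nfia (SE 0.10, edgeR adjusted p = 0.183) and -0.17 for Nfib (SE 0.06, edgeR adjusted p = 0.15). Zbtb20 had the largest difference, at -0.68 (SE 0.16, edgeR adjusted p = 0.111), and was the 1 member whose genotypes did not overlap, beside 9.45% of all genes. DESeq2 called Zbtb20 (-0.68, adjusted p = 0.00552) and Nfib (-0.17, adjusted p = 0.0437), and leaving out Nlrx1-/- litter 3 let edgeR call Zbtb20 (-0.75, adjusted p = 0.0188) and Nfix (-0.42, adjusted p = 0.0303). Over all genes, DESeq2 called 461 up and 282 down of 14191, and edgeR without that litter called 591 up and 722 down. Emx2 was at 0.13 (SE 0.17, edgeR adjusted p = 0.710), and Lhx2 at 0.05, Sox2 at -0.10, Pax6 at -0.15 and Sox9 at -0.23 did not pass the test either.

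Under LPS+IFNγ, 5.05% of all genes were called between genotypes, and 2 of the 9 members were. Zbtb20 differed by -40.7% in Nlrx1-/-, a log2 fold change of -0.75 (SE 0.16, edgeR adjusted p = 0.0393). Emx2 was higher by 84.7%, a log2 fold change of 0.88 (SE 0.17, edgeR adjusted p = 0.0393). For both genes, and for Nfia, the libraries of the genotypes did not overlap, 3 of 9 members beside 13.3% of all genes. The other members were not called, among them Sox9 at -0.42 (SE 0.19, edgeR adjusted p = 0.168), Sox2 at -0.36 (SE 0.19, edgeR adjusted p = 0.237), Nfix at -0.31 (SE 0.11, edgeR adjusted p = 0.0986), Nfia at -0.25 (SE 0.10, edgeR adjusted p = 0.108), Lhx2 at 0.23 (SE 0.14, edgeR adjusted p = 0.320), Nfib at -0.12 and Pax6 at 0.01. Between treatments, 1 of 9 members did not overlap in WT (Lhx2), beside 37.8% of all genes, and 2 of 9 in Nlrx1-/- (Nfia and Emx2), beside 32% of all genes.

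The sizes of the 2 called differences held, and their calls did not. With 1 litter left out in turn, Emx2 stayed between 0.76 and 0.99 and Zbtb20 between -0.86 and -0.67, but both calls were lost without WT litter 2 (edgeR adjusted p = 0.127), 3 (0.139) or 4 (0.15), without Nlrx1-/- litter 2 (0.0593) or 4 (0.148), and when the 8 LPS+IFNγ libraries were fitted alone (0.0744). Leaving out Nlrx1-/- litter 3, which had the highest Sox9, Sox2 and Nfix of the Nlrx1-/- litters in both treatments, made 5 calls, adding Sox9 (-0.61, adjusted p = 0.0215), Sox2 (-0.55, adjusted p = 0.0362) and Nfix (-0.40, adjusted p = 0.0178). Calls over all genes grew in that fit too, to 1504 up and 1836 down, from 428 and 383 with all litters. The same 4 litters per genotype supply both treatments, so the genotype difference in vehicle and that under LPS+IFNγ share their litters. The fit between genotypes has no litter term and takes the libraries of a litter as independent. A litter holds 1 genotype only, so what else differed between litters cannot be told apart from the genotype.

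**Figure D4:**
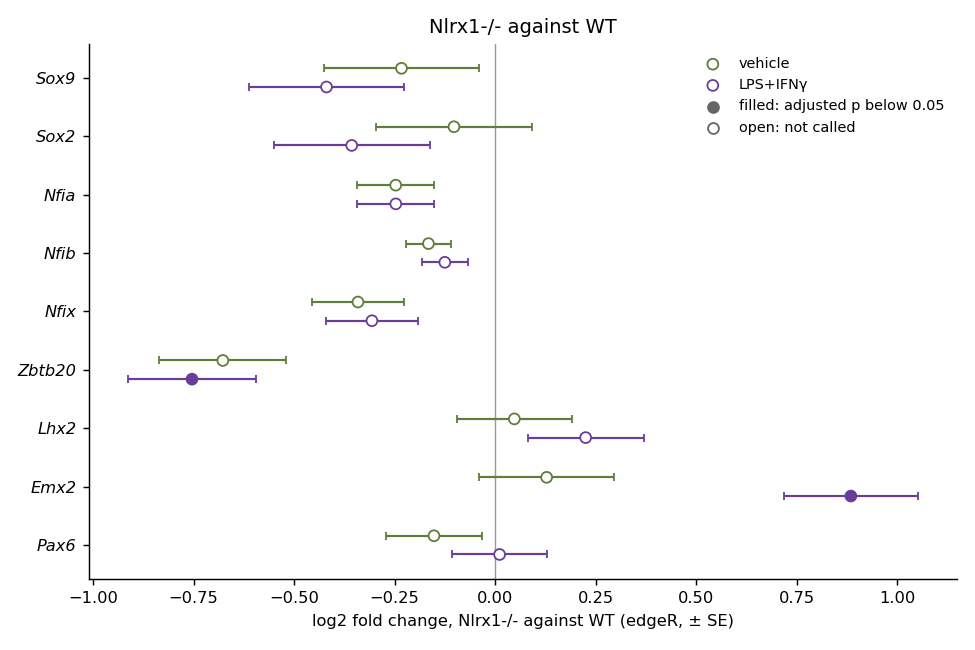
Log2 fold change of Nlrx1-/- against WT (x axis, edgeR, bars are ± SE) of each transcription factor (y axis) in vehicle (green) and under LPS+IFNγ (purple). Filled points passed an adjusted p of 0.05. Zbtb20, at -0.68 and -0.75, lies lowest in both treatments, and Emx2 moves from 0.13 in vehicle to 0.88 under LPS+IFNγ.

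The stretch of 250 bases before and 50 after the annotated start of each member's canonical transcript in GENCODE was read from GRCm39 and searched on both strands for the interferon-stimulated response element (ISRE, GAAANNGAAA), for the NFI palindrome (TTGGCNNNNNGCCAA) and for the NF-κB consensus, the motif of the factor that LPS activates. Of 21770 such windows in the genome, 3.84% held an ISRE, 0.037% an NFI palindrome and 6.11% an NF-κB motif. ISRE and NFI motifs were found in 0 of the 9 members' windows, and the NF-κB motif in 1, that of Pax6, from base -129 to base -120 counted from the start, on the plus strand. The windows of Emx2 and Zbtb20, the members called between genotypes, and of Pax6, the member with a match, are shown with a match in capitals.
Emx2, plus strand, chr19:59446554-59446853: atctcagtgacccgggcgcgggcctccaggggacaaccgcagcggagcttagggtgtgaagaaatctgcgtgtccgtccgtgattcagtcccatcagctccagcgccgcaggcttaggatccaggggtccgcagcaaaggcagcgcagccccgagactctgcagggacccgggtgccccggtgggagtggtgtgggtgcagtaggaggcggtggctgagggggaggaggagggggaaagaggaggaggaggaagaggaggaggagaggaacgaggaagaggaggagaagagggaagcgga
Zbtb20, plus strand, chr16:42727458-42727757: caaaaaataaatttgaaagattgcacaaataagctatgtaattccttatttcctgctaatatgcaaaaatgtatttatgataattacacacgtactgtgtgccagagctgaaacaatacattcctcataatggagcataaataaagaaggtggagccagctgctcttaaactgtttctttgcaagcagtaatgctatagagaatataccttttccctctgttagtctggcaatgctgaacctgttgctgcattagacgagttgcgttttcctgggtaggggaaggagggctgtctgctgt
Pax6, plus strand, chr2:105498984-105499283: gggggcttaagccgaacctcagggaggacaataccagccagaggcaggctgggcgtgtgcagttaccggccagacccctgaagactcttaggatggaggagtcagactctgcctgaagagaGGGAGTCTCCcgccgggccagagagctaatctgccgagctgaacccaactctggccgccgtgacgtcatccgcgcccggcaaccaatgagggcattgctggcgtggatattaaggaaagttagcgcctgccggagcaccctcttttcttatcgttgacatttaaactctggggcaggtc
The Emx2 window had 65.3% G and C and that of Zbtb20 38.7%, beside a median of 54.3% over all windows. Which of several starts astrocytes use was not measured, and a window without these letters says nothing of sites elsewhere in the gene.

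Several transcripts were paired with each of 7 members, and for 6 of these, leaving out Zbtb20 because few of its reads were paired, the share of the main transcript in the gene's TPM was compared between vehicle and LPS+IFNγ within the 8 litters by an exact sign-flip permutation test. This share changed in 4 of the 6. The test was run on these members only, so how 4 of 6 compares with the share over all genes is not known. In Nfix it rose from 30.2 ± 5.2% (SD, n = 4) to 41.9 ± 8.8% in WT and from 32.7 ± 8.3% to 46.9 ± 14.2% in Nlrx1-/-, higher in 8 of 8 litters (two-sided exact permutation p = 0.00781, the smallest that 8 litters can give, adjusted p = 0.0156). Meanwhile another Nfix transcript, NM_001371057.1, went from 21.0 ± 3.6% to 11.2 ± 6.7% in WT and from 22.5 ± 5.8% to 9.26 ± 7.2% in Nlrx1-/-. In Nfia the main transcript went from 67.4 ± 1.4% to 72.0 ± 4.8% in WT and from 64.8 ± 2.3% to 74.2 ± 0.8% in Nlrx1-/-, higher in 7 of 8 litters (exact permutation p = 0.0156, adjusted p = 0.0234).

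The main transcripts of Nfib and Lhx2 moved the other way. That of Nfib fell by 4.68 ± 2.67 percentage points (SD, n = 8) and that of Lhx2 by 7.71 ± 4.17 points, each lower in 8 of 8 litters (exact permutation p = 0.00781, adjusted p = 0.0156). In Lhx2 the transcript NM_001290646.1 went from 5.02 ± 1.7% to 9.60 ± 4.2% of the gene's TPM in WT and from 4.76 ± 1.7% to 12.4 ± 4.8% in Nlrx1-/-. Neither Emx2, where the main transcript held between 91.7% and 100% in every library, nor Pax6, where it ranged from 24.5% to 59.8%, passed the test (exact permutation, adjusted p = 0.984 for each). The transcripts of a gene share most of their exons, and Salmon divides reads between them by estimate, an error that these shares do not carry.

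**Figure D5:**
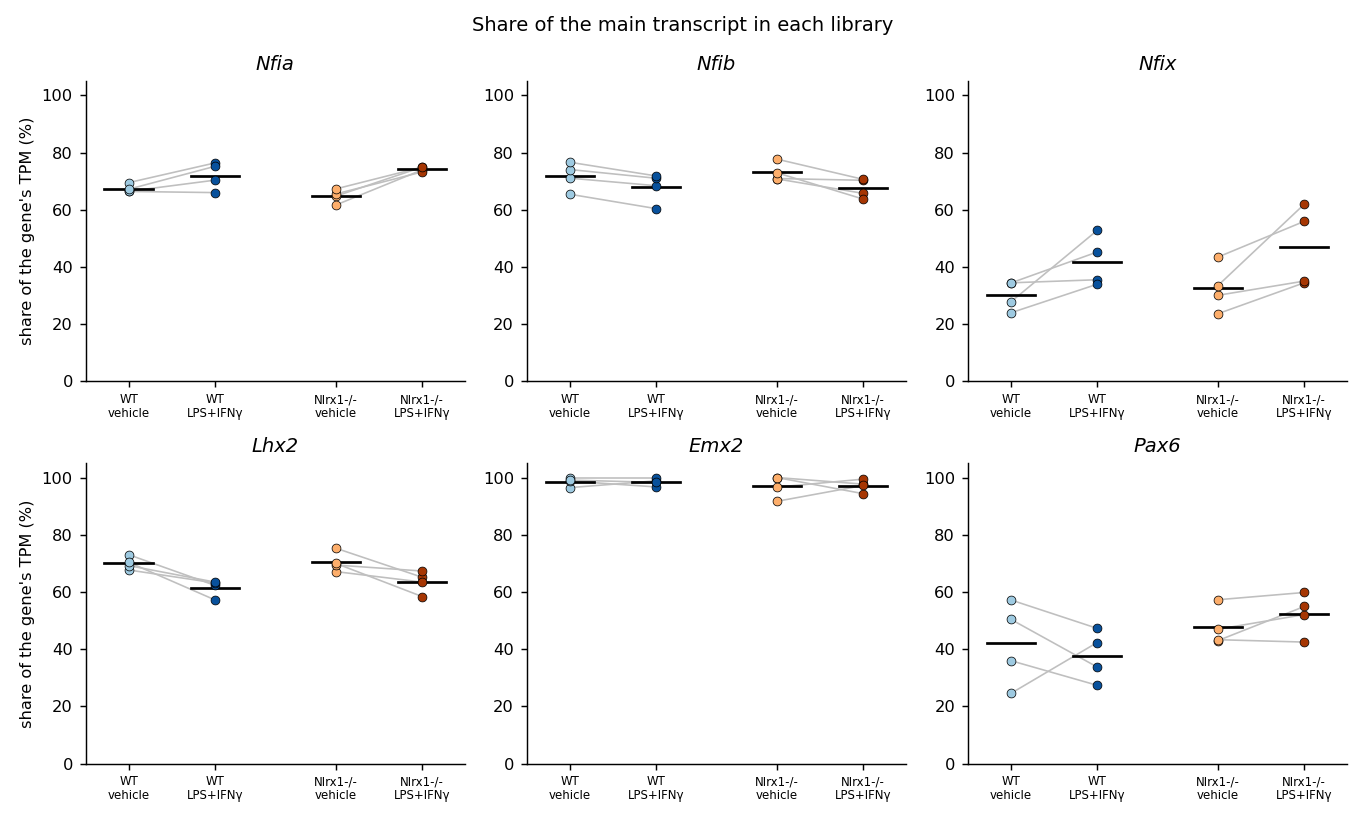
Share of the main transcript in the TPM of its gene (y axis, percent) in the 4 groups (x axis) for the 6 transcription factors tested (Zbtb20 left out). Points are libraries, grey lines join the cultures of 1 litter, and black bars are means. The share is higher with LPS+IFNγ in all 8 litters in Nfix and lower in all 8 in Nfib and Lhx2.

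Genes that SOX9, NFIA and PAX6 are known to regulate were followed through a list of 10, all of which were tested. In WT 2 rose and 5 fell, with a median log2 fold change of -0.41, and in Nlrx1-/- 2 rose and 6 fell, with a median of -0.65. Apcdd1, a Wnt inhibitor induced by SOX9 and NFIA, fell most, by 2.17 on the log2 scale in WT (SE 0.19, edgeR adjusted p = 9.55e-06) and by 2.48 in Nlrx1-/- (SE 0.21, edgeR adjusted p = 4.81e-06). Mmd2, another target of the pair, fell by 1.02 in WT (SE 0.14, edgeR adjusted p = 0.000189), and S100b, which encodes a calcium-binding protein of mature astrocytes, fell by 2.09 in Nlrx1-/- (SE 0.19, edgeR adjusted p = 9.87e-06). Mmd2 also fell in Nlrx1-/-, by 1.73 (edgeR adjusted p = 4.9e-06), and S100b in WT, by 0.96 (edgeR adjusted p = 0.00115). Aldh1l1, the folate enzyme used as an astrocyte marker, rose by 0.58 in WT and 0.35 in Nlrx1-/-, and Slc1a3, the glutamate transporter GLAST, rose by 0.23 and 0.13. Of the 10 targets, 6 also stand in the list of astrocyte markers. Between genotypes under LPS+IFNγ, 2 of the 10 were called, both lower in Nlrx1-/-: S100b (-2.00, edgeR adjusted p = 0.0438) and Zcchc24 (-0.30, edgeR adjusted p = 0.0393), which were named after their values were seen, beside 5.05% of all genes called. Both calls are lost when the 8 LPS+IFNγ libraries are fitted alone, where 0 genes were called.

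Other factors of radial glia and neural stem cells, a list of 28 of which 27 were tested, moved with a median log2 fold change of -0.18 in WT, where 7 rose and 15 fell, and of -0.25 in Nlrx1-/-, where 5 rose and 15 fell. The largest falls in WT were those of Hey2 (-1.49, edgeR adjusted p = 0.000269), an effector of Notch, and Id4 (-1.28, edgeR adjusted p = 1.57e-05), which blocks the action of basic helix-loop-helix factors. In Nlrx1-/- they were those of Hes5 (-2.05, edgeR adjusted p = 8.7e-05), also an effector of Notch, and Id4 (-1.83, edgeR adjusted p = 1.47e-06). Hey2 also fell in Nlrx1-/- (-1.40, edgeR adjusted p = 0.000477), and Hes5 in WT (-0.75, edgeR adjusted p = 0.0275). Gli3, a factor of Sonic hedgehog signalling (0.87, edgeR adjusted p = 1.78e-06), and Dmrta2, a patterning factor of the cortical hem (0.50, edgeR adjusted p = 0.000779), rose most in WT. Hopx, an adult stem cell and astrocyte factor (1.04, edgeR adjusted p = 0.0323), and Dmrta2 (0.94, edgeR adjusted p = 8.23e-06) rose most in Nlrx1-/-. Gli3 also rose in Nlrx1-/- (0.77, edgeR adjusted p = 3.63e-06), and Hopx was not called in WT (-0.03, edgeR adjusted p = 0.956). None of the 27 was called between genotypes in either treatment, beside 0% of all genes in vehicle and 5.05% under LPS+IFNγ. In Nlrx1-/- 21 of the 27 lay below WT in vehicle and 19 under LPS+IFNγ. Their median log2 fold changes were -0.18 and -0.22, beside 0.00 and -0.01 over all genes.

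Emx2, Lhx2 and Pax6 also mark regions of the brain, so genes that pattern other regions were set beside them. In WT Dlx2 (-1.81, edgeR adjusted p = 0.00448) and Nkx2-1 (-0.45, edgeR adjusted p = 0.0442), factors of the ventral telencephalon, fell, and Gsx2, Dlx1 and Otx1 were not called. None of these 5 was called in Nlrx1-/-. Of 16 listed from the diencephalon to the hindbrain 13 were tested: En2, Zic4 and Otx2 rose in both genotypes, En2 by 0.70 in WT (edgeR adjusted p = 0.000773) and 0.75 in Nlrx1-/- (edgeR adjusted p = 0.000322), Zic4 by 0.37 and 0.52 and Otx2 by 0.28 and 0.48. Irx2 fell by 0.55 in WT and 0.47 in Nlrx1-/- and Irx1 by 0.37 and 0.41, and Irx5 fell by 0.48 in WT. Gbx2, Barhl2, Pax7, En1, Pax3, Irx3 and Zic1 were called in neither. Genes that pattern the forebrain and the midbrain to hindbrain were thus both present in these whole-brain cultures. None of those named was called between genotypes in either treatment, beside 0% of all genes in vehicle and 5.05% under LPS+IFNγ.

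The genes whose log2 CPM followed a member most closely over the 16 libraries, among 10313 genes with a mean of at least 3 log2 CPM, were found by Pearson's r, as a description, since the libraries share litters and fall into 2 treatments. They were Npdc1 (0.94) and Psap (0.94) for Sox9, Pdk4 (0.94) and Tprgl (0.93) for Sox2, Ccpg1 (0.96) and Sec62 (0.95) for Nfia, Specc1l (0.88) and Vps13b (0.85) for Nfib, and Cacng7 (0.98) and Cpe (0.97) for Nfix. For Zbtb20 they were Ampd3 (0.95) and Oplah (0.94), for Lhx2 Degs1 (0.87) and Ktn1 (0.84), for Emx2 Znrf1 (0.97) and Arfgef1 (0.96), and for Pax6 Cdkn1b (0.81) and Flrt2 (0.79). No member was among the 2 closest genes of another.

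The cultures carried the markers of astrocytes, with all 12 listed genes present, and few of microglia: 8 of 10 microglial markers, Aif1, Cx3cr1, Tmem119, Csf1r, Itgam, Ptprc, Fcrls and Trem2, were below the authors' filter, with at most 14 reads in a library, and the other 2, Sall1 and P2ry12, summed to between 68.1 and 134 CPM. Nearly all of that sum was Sall1, at 6.07 to 7.06 log2 CPM, with P2ry12 at no more than 0.88 log2 CPM. The 12 astrocyte markers summed to between 7428 and 11551 CPM in WT vehicle, 6553 and 9745 in WT LPS+IFNγ, 5886 and 9135 in Nlrx1-/- vehicle and 5457 and 7483 in Nlrx1-/- LPS+IFNγ. All 11 markers of the oligodendrocyte lineage were present. In the same order of groups they summed to between 3151 and 3725, 2659 and 3245, 3259 and 3959, and 2323 and 3056 CPM. Olig1 weighed most in these sums, at a mean of 10.78 log2 CPM in WT vehicle and 11.19 in Nlrx1-/- vehicle. In vehicle, 8 of the 11 had fitted levels below WT in Nlrx1-/- (median log2 fold change -0.58), and 0 were called. Under LPS+IFNγ, 10 of the 11 were below WT (median -0.83), and 1 was called, a call lost with that treatment fitted alone. Mbp lay between 2.49 and 7.22 log2 CPM in Nlrx1-/- vehicle and between 6.47 and 7.84 in WT vehicle. Of the neuronal markers 9 of 10 were present, at 865 to 1196 CPM in sum over all groups, and of the ependymal markers 5 of 6, at 97.2 to 247 CPM. Most of the neuronal sum was Map2, at 9.61 to 10.1 log2 CPM. Tubb3 was next, at no more than 6.31 log2 CPM, and Rbfox3 reached no more than 1.80. Vascular and fibroblast markers, 6 of 10 present, summed to at most 42.7 CPM. The 12 genes of cycling cells summed to between 1575 and 2670 CPM in WT vehicle, 1935 and 2378 in WT LPS+IFNγ, 2133 and 2702 in Nlrx1-/- vehicle and 1344 and 2381 in Nlrx1-/- LPS+IFNγ. By the test, 3 astrocyte markers rose and 7 fell in WT, and 2 rose and 8 fell in Nlrx1-/-, while 4 cycling genes rose and 1 fell in WT, and 0 rose and 7 fell in Nlrx1-/-. In vehicle, 10 of the 12 astrocyte markers had fitted levels below those of WT in Nlrx1-/-. Their median log2 fold change was -0.36 beside 0.00 over all genes, and 0 were called, beside 0% of all genes. Under LPS+IFNγ, all 12 astrocyte markers had fitted levels below those of WT in Nlrx1-/-, with a median log2 fold change of -0.85 beside -0.01 over all genes, and 4 of the 12 were called, beside 5.05% of all genes. These 4 calls, too, are lost when that treatment is fitted alone. In bulk RNA, fewer cells of a type and less RNA per cell cannot be told apart, and the part of the cell mixture in the values of the 9 factors was not tested.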

How the data were processed

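RNA-seq of 16 astrocyte cultures was analysed from the authors' files. The authors ran Salmon 1.7.0 on the GRCm39 RefSeq transcriptome and deposited an expected count, a TPM and an effective length per transcript. They made CPM (TMM-scaled, limma 3.58.1), entered here as a signal since the deposited columns do not sum to the total that CPM would give, and the deposited log2 CPM from these.

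Expected counts were summed per gene over 106430 of 129698 transcripts (96.7% to 97.3% of reads) and rounded to whole numbers. For Zbtb20 and 11 other listed genes with under 80% of reads paired, rows were rebuilt from the deposited CPM with 1 factor per library, a step not foreseen in the planned design. Responses and their difference were tested with edgeR 4.0.16 in R 4.3.3 (quasi-likelihood, TMM, length offsets, minimum count of 10, litters as blocks within genotype), and genotypes in a 4-condition fit without litters. Same-litter libraries correlated at r = 0.073 to 0.355 across genes after centring by group, against a median of -0.052 for other litters. The wells of a litter come from the same mice, and the 4-condition fit takes them as independent. The consensus correlation within litters, from limma-voom, was 0.35. Sign-flip permutation tests, levels and plots used Python 3.11.15 with numpy 2.4.6, pandas 2.3.3 and matplotlib 3.10.9. Alternatives used DESeq2 1.42.0 and limma-voom, and data.table (version 1.17.8) read the files. The fits were tested on simulated counts drawn without differences between litters and fitted without length offsets. Those simulated counts therefore do not check how litters or length offsets were handled.

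Precision follows from the reads of each gene and from the spread of 4 litters. The members and lists were chosen with earlier results of these data known. All members are named. Of the lists, the 2 largest changes in each direction among called genes are named for radial glia factors and targets, and the tested regional genes, apart from some that are not reported here. Exons, overlaps and promoters come from GENCODE on GRCm39, which is not the annotation the authors used.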

Additional observations from a re-analysis of the deposited data

Results flagged for a closer look

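In the groups of 4 libraries, 2 of 54 sets of member values held a sample that stood far from the other 3, which chance gives in about 1 of 20 sets. The level of Lhx2 in WT vehicle litter 4 was 6.34 log2 CPM, with the next library at 6.06. The response of Sox9 in WT litter 4 was 0.16 log2 units, with the next litter at 0.10. No explanation was tested for either.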

How the results depend on the processing

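The number of members called fell from 5 to 2 in WT and from 4 to 2 in Nlrx1-/- with no replicate block, and to 3 in WT at an adjusted p below 0.01. Without the block Emx2 (adjusted p = 0.0778), Zbtb20 (0.292) and Nfix (0.124) lost their WT calls, and Sox2 (0.185) and Nfix (0.175) their Nlrx1-/- calls. For the difference of responses DESeq2 called 1 member and leaving out litters 0 to 1. In vehicle DESeq2 called 2 and leaving out litters gave 0 to 2. Under LPS+IFNγ the 2 calls became 0 with libraries of that treatment alone and at an adjusted p below 0.01, and 0 to 5 with litters left out. Replicate numbers are shared across genotypes without marking shared animals (r = -0.089 to 0.18 between same-numbered libraries), and with that number as a block 0 members were called in vehicle and 2 under LPS+IFNγ. Values near 0 changed sign. For Pax6 in Nlrx1-/- the response was 0.0021 with no length offsets, 0.0045 from the deposited log2 CPM, 0.0048 with rebuilt counts, and -0.080 to 0.11 with litters left out. The Nfia difference of responses was 0.0074 with DESeq2, 0.0075 with its size factors, 0.020 with no length offsets, 0.00022 with rebuilt counts, 0.00026 with no replicate block and -0.055 to 0.043 with litters left out. Pax6 between genotypes under LPS+IFNγ was -0.000662 with litters as a random block and -0.075 to 0.10 with litters left out. Leaving out litters also gave -0.13 to 0.0031 for Zbtb20 and -0.013 to 0.087 for Nfix (difference of responses), -0.22 to 0.00071 for Sox2 and -0.10 to 0.15 for Lhx2 (vehicle), and -0.80 to 0.80 points for Emx2 and -2.35 to 2.57 points for Pax6 (transcript share). Over all genes, the difference of responses gave 0 calls up and 0 down with edgeR, 111 and 185 with DESeq2 and 127 and 193 without Nlrx1-/- litter 3. In vehicle these were 0 and 0, 461 and 282 with DESeq2, 591 and 722 without Nlrx1-/- litter 3 and 117 and 36 without WT litter 1. Under LPS+IFNγ, 428 and 383 became 1236 and 1209 with DESeq2, 199 and 187 with limma-voom, 735 and 736 from the deposited log2 CPM, 1016 and 1190 with the replicate block, 577 and 659 with litters as a random block, 0 and 0 with that treatment alone, and from 0 and 1 without WT litter 2 to 1504 and 1836 without Nlrx1-/- litter 3. The cause was not tested.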
